A study of Mus musculus with 19 samples.

Results

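The data describe 10 genes of growth arrest and the p53 response, which are Trp53, Mdm2, Cdkn1a, Ccng1, Btg2, Gadd45a, Gadd45b, Gadd45g, Bax and Bbc3. They were chosen by name, with earlier results of these data known, and all 10 are among the 12629 genes with deposited values. The values come from 19 RNA-seq libraries of GFP-positive sensory neurons, sorted by FACS from dorsal root ganglia (DRGs) 8 weeks after surgery. In the GFP groups the left C5-C8 DRGs received AAV5-fGFP, in which a CMV promoter drives a farnesylated GFP. In the α9k1 groups they received AAV5-α9-V5 (α9 integrin under a CAG promoter) together with AAV5-kindlin1-GFP (the integrin activator kindlin-1 under a CMV promoter). GFP-crush and α9k1-crush animals had a crush of the dorsal roots at these levels in the same operation, and the roots of GFP-naive and α9k1-naive animals were left intact. There were 4 libraries each of GFP-crush and α9k1-crush, 5 of GFP-naive and 6 of α9k1-naive. The sample labels give the animals as C57BL/6 mice, wild-type for the GFP groups, whereas the study's methods give male Lewis rats aged 2 months, and the reads were aligned to the mouse genome. No ganglia without a virus are among the samples, so all groups share the injection and an AAV5 vector, and the sort selects on GFP, so that α9 integrin itself was not selected for.

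The transcription factor p53, encoded by Trp53, is regulated mainly through the stability of the protein, and its activity is read from its target genes rather than from its own mRNA. Among the targets are Mdm2, which encodes the ubiquitin ligase that degrades p53, the cyclin-dependent kinase inhibitor Cdkn1a (p21), and the proapoptotic genes Bax and Bbc3 (Puma). Cdkn1a, Btg2 and the Gadd45 genes are also induced without p53 by stress kinases, growth factors and cytokines, and mature neurons, which do not divide, use several of them after injury and activity.

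The promoters of the 10 genes are given first, since binding of p53 is what defines a direct target. RefSeq (GRCm38.p6) lists 13 start sites for the 10 genes, and the 250 bases before each were searched on both strands. A p53 decamer, the 10-base unit of the p53 response element, was present for 6 of the 10 genes (Trp53, Mdm2, Cdkn1a, Ccng1, Gadd45a and Bax) and in 7.13% of 32851 promoters of the genome (5.90% of those of genes with values). Since several of the genes were chosen as p53 targets, this is a description. A single decamer was counted, and bases further upstream or within the genes were not searched. Presence or absence in these windows therefore does not settle whether a gene is a direct target. The cyclic AMP response element TGACGTCA was found for Btg2 and in 1.55% of all promoters (2.64% of those of genes with values). The AP-1 site TGANTCA (6.75% of promoters, 4.50% of those of genes with values) and the CArG box of serum response factor (1.47% and 1.26%) were found for 0 of the 10 genes. The 5 windows below are those of genes that changed, 2 with a p53 decamer and 3 without, each on its own strand from 5′ to 3′, with the p53 decamer or the cyclic AMP response element in capitals. They are mouse reference sequence, whichever species the animals were.
Cdkn1a, upstream start, chr17:29090729-29090978, plus strand: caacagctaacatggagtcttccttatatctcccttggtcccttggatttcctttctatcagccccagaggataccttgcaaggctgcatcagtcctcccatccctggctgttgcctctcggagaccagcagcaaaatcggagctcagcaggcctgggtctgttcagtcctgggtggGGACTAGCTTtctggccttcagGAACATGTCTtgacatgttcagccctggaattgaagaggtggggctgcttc
Mdm2, chr10:117710759-117711008, minus strand: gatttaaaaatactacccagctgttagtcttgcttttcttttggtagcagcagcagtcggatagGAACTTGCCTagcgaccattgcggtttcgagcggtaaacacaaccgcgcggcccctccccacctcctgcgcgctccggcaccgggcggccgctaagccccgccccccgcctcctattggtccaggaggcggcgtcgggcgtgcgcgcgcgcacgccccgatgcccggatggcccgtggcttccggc
Btg2, chr1:134079156-134079405, minus strand: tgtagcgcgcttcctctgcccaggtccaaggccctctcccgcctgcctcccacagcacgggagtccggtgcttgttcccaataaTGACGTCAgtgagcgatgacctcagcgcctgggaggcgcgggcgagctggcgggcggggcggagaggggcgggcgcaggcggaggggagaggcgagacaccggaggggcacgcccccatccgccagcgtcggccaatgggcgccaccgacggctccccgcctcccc
Gadd45b, chr10:80929841-80930090, plus strand: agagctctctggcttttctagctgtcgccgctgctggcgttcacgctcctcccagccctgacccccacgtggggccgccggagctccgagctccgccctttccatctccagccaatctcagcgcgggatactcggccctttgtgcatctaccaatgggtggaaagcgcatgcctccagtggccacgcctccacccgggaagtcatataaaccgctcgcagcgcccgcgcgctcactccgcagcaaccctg
Gadd45g, chr13:51846425-51846674, plus strand: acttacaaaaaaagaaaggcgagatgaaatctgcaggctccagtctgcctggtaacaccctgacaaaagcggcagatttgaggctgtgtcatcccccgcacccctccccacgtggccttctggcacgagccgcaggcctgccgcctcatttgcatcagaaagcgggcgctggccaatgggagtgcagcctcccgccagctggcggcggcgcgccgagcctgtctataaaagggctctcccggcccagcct
The upstream start of Cdkn1a has 2 decamers, GGACTAGCTT at -73 to -64 and GAACATGTCT at -51 to -42, counted from the start site. The decamer of Mdm2 is GAACTTGCCT at -186 to -177, and that of Gadd45a, whose window is not printed, is GGGCTAGCCC at -40 to -31. The element of Btg2 lies at -166 to -159. The windows of Gadd45b and Gadd45g hold none of the motifs searched.

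Depth ranged from 36.4 to 87.6 M read pairs, the share of aligned reads from 47.5% to 54.1%, and 3.87% to 4.05% of aligned bases differed from the mouse reference. Libraries of a group correlated at r = 0.948 to 0.976 over all genes, and libraries of different groups at 0.847 to 0.949. Quality metrics moved with the groups. Ribosomal bases were 0.0723% to 0.153% in the GFP libraries and 0.0169% to 0.0360% in the α9k1 libraries, and intronic bases 2.04% to 2.93% and 1.35% to 1.68%, in both cases without α9k1-naive replicate 6. That library stood apart from its group, with 0.0898% ribosomal and 2.26% intronic bases. The median 3′ bias was 0.646 to 0.670 in α9k1-crush and 0.593 to 0.639 in α9k1-naive. The part of these metrics in the results was not tested beyond the fits with and without covariates. Without α9k1-naive replicate 6, the counts of called genes among the 10 were the same in the 4 comparisons, and the log2FC in α9k1-naive versus GFP-naive was 1.69 for Btg2 and 3.18 for Gadd45g (1.21 and 2.86 with it). The transgenes followed the labels. Fermt1 (kindlin-1) was at 0.42 to 0.80 in the GFP libraries, at 5.18 to 6.00 in α9k1-naive and at 6.42 to 7.73 in α9k1-crush, and Itga9 (α9 integrin) was at 0.90 to 2.40, at 2.38 to 5.16 and at 5.53 to 7.51, with the lowest α9k1-naive library inside the range of the GFP libraries. The 8 sensory neuron markers were present in all groups (summed log2 level of 12.3 to 13.4). Satellite glia markers, led by Apoe, were higher than these (14.1 to 16.8), and Schwann cell markers were near them (11.4 to 13.9), although the sort was for transduced neurons. These and the macrophage and fibroblast markers differed between the groups and are given beside the results. In bulk samples, fewer cells of a type and less RNA per cell cannot be told apart. The terms GFP neurons and α9k1 neurons below stand for the sorted cells of these groups, whichever cells the RNA came from.

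All levels below are the deposited values, which are log2 of the read count after the authors' correction for gene length and depth. That correction does not cover how well the reads of each gene aligned to the mouse genome, which was not tested. If the animals were rats, comparisons between genes hold only with this limit. The order of the 10 genes differed little between groups. Gadd45g had the highest mean in all 4 groups and Gadd45b the second highest. In GFP-crush these means, 7.23 ± 0.22 and 7.20 ± 0.18 (SD, n = 4), differed by less than their spread. Gadd45a, Btg2, Bax and Ccng1 followed at 5.45 to 8.97 over the groups, then Trp53 and Mdm2 at 4.20 to 5.63. Bbc3 was at 2.69 to 3.59. Cdkn1a was the lowest of the genes in GFP-naive (2.61 ± 0.59, SD, n = 5) and the eighth in α9k1-naive (5.11 ± 0.19, SD, n = 6), and no other gene of the set shifted its rank upwards by as much between these groups.

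**Figure D1:**
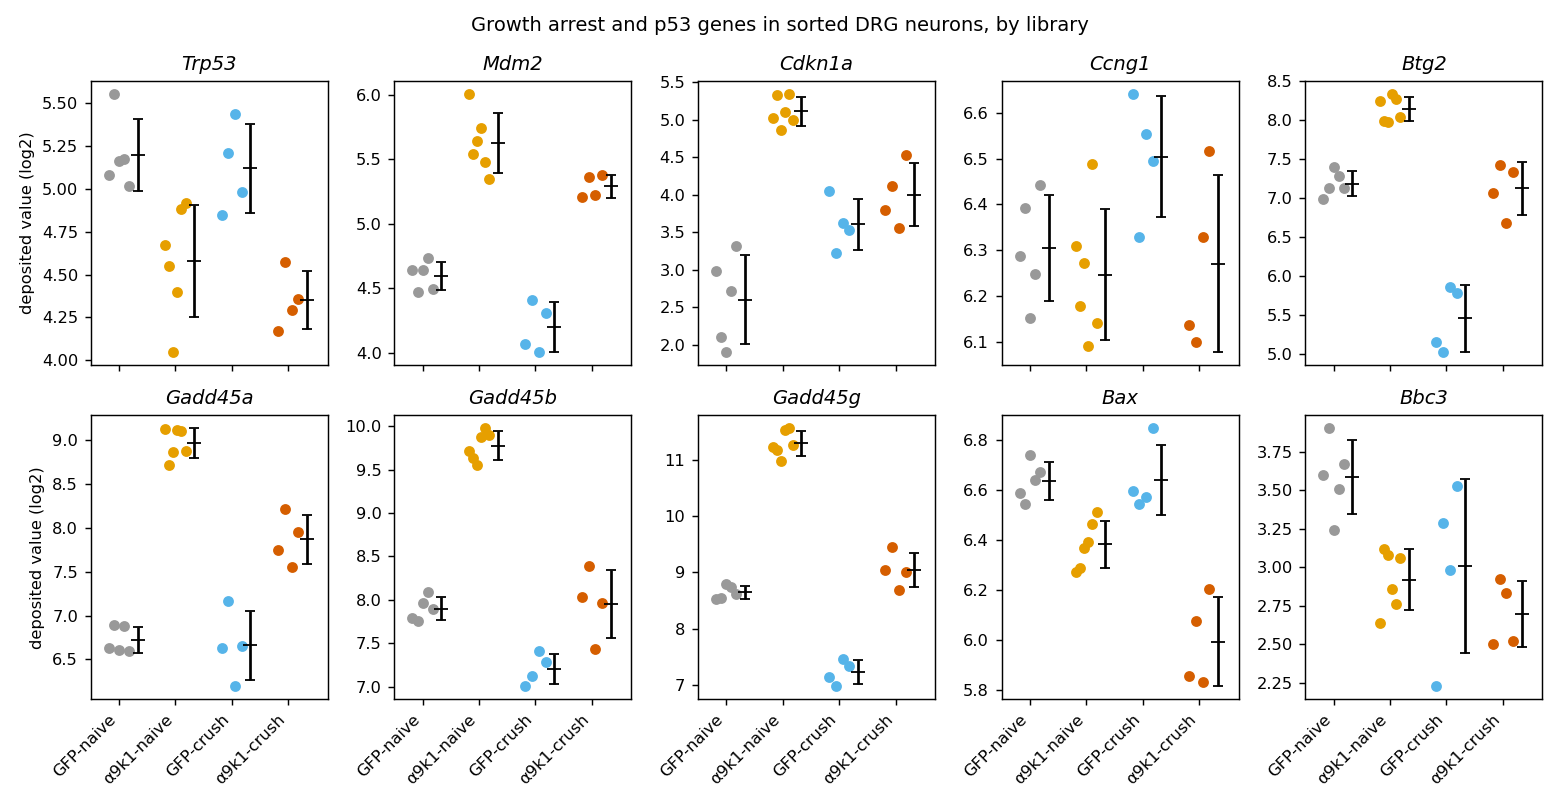
Deposited log2 values of the 10 genes (vertical axes, each panel with its own range) in the 4 groups (horizontal axis), with 1 point for each library and a bar for the mean ± SD beside the points. The 6 α9k1-naive libraries lie above all GFP-naive libraries for Mdm2, Cdkn1a, Btg2, Gadd45a, Gadd45b and Gadd45g, and below them for Trp53, Bax and Bbc3.

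In the sorted cells without a crush, α9 integrin and kindlin-1 expression went with higher mRNA of Cdkn1a, Btg2, the 3 Gadd45 genes and Mdm2, but not of Ccng1, Trp53 or the proapoptotic genes. Called genes are those that passed a false discovery rate of 0.1 over the 12629 genes (Benjamini-Hochberg) in the limma fit with 3 covariates for library quality. In α9k1-naive versus GFP-naive, 6 of the 10 genes were called higher (Mdm2, Cdkn1a, Btg2, Gadd45a, Gadd45b and Gadd45g), against 11.4% of all genes, and Bbc3 alone was called lower, against 17.6%. The values of these groups did not overlap for the same 6 genes, which were higher, against 8.43% of all genes, and for 3 that were lower (Trp53, Bax and Bbc3), against 13.2%. Without the covariates the 6 were called as well, against 16.5%, and the 3 lower genes all passed, against 29.5%. The median log2FC of the 10 genes was 1.02 and that of all genes was -0.08. Of the 6 genes, Mdm2, Btg2, Gadd45a, Gadd45b and Gadd45g are in gene lists that the study drew from these samples, which is not independent evidence of their direction.

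After the crush, Btg2, Gadd45b and Gadd45g were higher with α9k1, and standard errors were larger than without crush. In α9k1-crush versus GFP-crush, these 3 of 10 were called higher, against 0.728% of all genes, and 0 of 10 were called lower, against 0.182%. At an unadjusted p under 0.05, 5 genes were higher (also Mdm2 and Gadd45a) and 0 were lower, against 9.11% of all genes in either direction. Without the covariates, 5 of 10 were called higher (Mdm2, Btg2, Gadd45a, Gadd45b and Gadd45g), against 29.6% of all genes, and 3 lower (Trp53, Ccng1 and Bax), against 28.3%. Values did not overlap for 5 genes that were higher (Mdm2, Btg2 and the Gadd45 genes), against 20% of all genes, and for 2 that were lower (Trp53 and Bax), against 20.8%. Cdkn1a was called in neither fit. In a limma fit of the 8 crush libraries alone, 0 of 10 genes and 0 of all 12629 genes were called. The 3 covariates themselves differed between the groups, with 34.5%, 52.2% and 74.5% of their variance between groups. Means of the third were 3.56 in α9k1-crush, -1.73 in α9k1-naive, 0.32 in GFP-crush and -1.02 in GFP-naive. Group and library quality can thus not be fully told apart.

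Several of the same transcripts were lower with crush. In GFP-crush versus GFP-naive, Btg2, Gadd45b and Gadd45g were called lower, 3 of 10 against 15.7% of all genes, and Cdkn1a was called higher, 1 of 10 against 7.39%. Without the covariates Mdm2 and Bbc3 were called lower as well, 5 of 10 against 20.1%, and Cdkn1a higher, 1 of 10 against 11%. In α9k1-crush versus α9k1-naive, Gadd45b and Gadd45g were called lower, 2 of 10 against 5.27%, and 0 of 10 were called higher, against 4.47%. At an unadjusted p under 0.05, Gadd45a was lower as well and 0 were higher, 3 of 10 against 21.5% of all genes in either direction. Without the covariates, 7 of 10 were called lower there (Mdm2, Cdkn1a, Btg2, the Gadd45 genes and Bax), against 27.1%, and 0 higher, against 28.5%. A fit of only the 2 α9k1 groups called 0 of 10 genes and 202 of all 12629 genes. Values did not overlap for 4 genes that GFP-crush lowered (also Mdm2), against 12.2% of all genes, and for 0 that were higher, against 7.59%. In α9k1-crush they lay below α9k1-naive without overlap for 6 genes (Cdkn1a, Btg2, the Gadd45 genes and Bax), against 16.1%, and above it for 0, against 17.4%. Each of these comparisons shares a group with another of them.

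**Figure D2:**
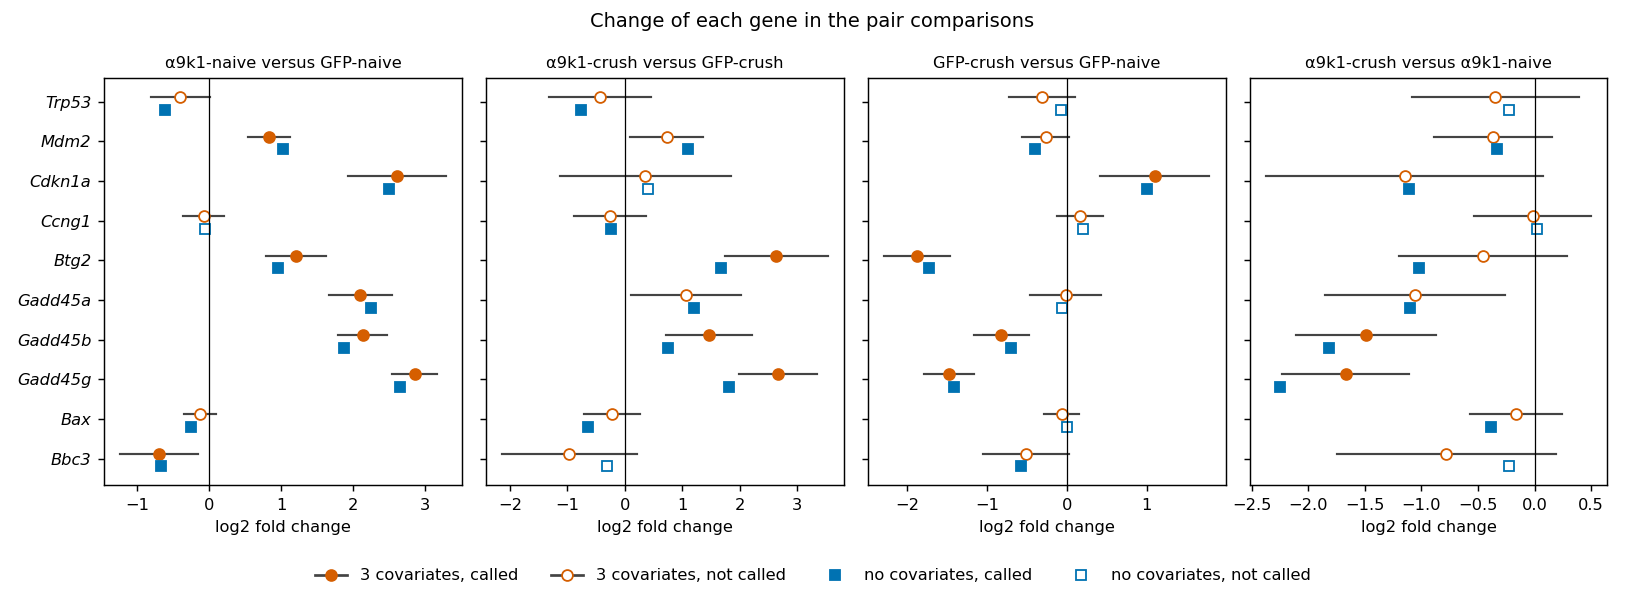
log2FC of the 10 genes (horizontal axes, in log2 units, each panel with its own range) in the 4 comparisons. Circles are the fit with 3 covariates, with lines for the 95% confidence interval, and squares the fit without covariates, filled where the gene was called. The Gadd45g circle lies above 0 in both α9k1 comparisons (2.86 and 2.66) and below 0 in both crush comparisons (-1.48 and -1.67).

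Trp53 (chr11:69580359-69591873 of GRCm38, plus strand) encodes p53 itself. Its values in GFP-naive were 5.08, 5.55, 5.16, 5.18 and 5.01, and in α9k1-naive they ran from 4.05 over a median of 4.61 to 4.92. The GFP-crush values were 4.85, 5.21, 5.43 and 4.98, and the α9k1-crush values were 4.17, 4.57, 4.30 and 4.36. Both α9k1 groups thus lay below the GFP group of the same surgery without overlap. With the covariates neither difference was called (log2FC of -0.40 ± 0.19 SE, adjusted p = 0.154, and -0.44 ± 0.42, adjusted p = 0.818). Without them both were called (-0.62, adjusted p = 0.00389, and -0.77, adjusted p = 0.00168). The crush comparisons overlapped, with a log2FC of -0.31 in GFP and of -0.35 in α9k1 neurons, and neither was called.

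Mdm2 (chr10:117688888-117710758, minus strand) encodes the ubiquitin ligase that degrades p53 and is transcribed from a p53-dependent as well as a constitutive promoter. Its values in GFP-naive were 4.64, 4.47, 4.64, 4.73 and 4.49. In α9k1-naive they ran from 5.34 over a median of 5.59 to 6.01, so that every library was above every GFP-naive library. The log2FC was 0.83 ± 0.14 (SE, 95% interval of 0.54 to 1.12, 1.78-fold, adjusted p = 0.000531), and it was called without each library in turn. After the crush, the values were 4.07, 4.41, 4.004 and 4.31 in GFP-crush and 5.21, 5.36, 5.22 and 5.38 in α9k1-crush, again without overlap. The log2FC there was 0.73 ± 0.30 (adjusted p = 0.480), which was not called with the covariates, and 1.09 (adjusted p = 5.14e-06) without them. The test of the difference between the α9k1 effects after and without crush gave -0.10 for Mdm2, with a 95% interval from -0.70 to 0.50. In the deposited values Mdm2 was higher and Trp53 lower in both α9k1 groups than in the GFP groups, whereas the means of both were lower with crush in GFP and in α9k1 neurons. The genes had a Pearson r of -0.72 over the 19 libraries and of -0.23 once group means were removed.

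Cdkn1a (chr17:29090979-29100722, plus strand) encodes p21, the inhibitor through which p53 stops the cell cycle. Its values in GFP-naive were 2.99, 2.10, 1.91, 2.71 and 3.32, the widest spread of any of the 10 genes in that group. In α9k1-naive they ran from 4.86 over a median of 5.07 to 5.34. The groups were separated by more than 1 log2 unit at their nearest, and the log2FC was 2.61 ± 0.32 (SE, 95% interval of 1.93 to 3.29, 6.10-fold, adjusted p = 3.95e-05), the 81st highest of 12629 genes. The GFP-crush values were 4.05, 3.22, 3.63 and 3.52, above the GFP-naive mean in all 4 libraries but overlapping at the edge with the highest GFP-naive library. The log2FC of the crush in GFP neurons was 1.10 ± 0.32 (2.15-fold, adjusted p = 0.0337), the only called increase of the set with crush. It was lost without GFP-naive replicate 2 (0.95, adjusted p = 0.134) or replicate 3 (0.80, adjusted p = 0.113).

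In α9k1-crush, Cdkn1a was at 3.80, 4.11, 3.56 and 4.53, which overlapped with GFP-crush and lay below α9k1-naive without overlap. The log2FC was 0.35 ± 0.70 against GFP-crush (95% interval of -1.13 to 1.84, adjusted p = 0.932) and -1.15 ± 0.57 against α9k1-naive (95% interval of -2.38 to 0.08, adjusted p = 0.263). The first of these changed sign without GFP-crush replicate 2 (-0.14) or α9k1-crush replicate 4 (-0.27). Cdkn1a had the largest interaction of the 10 genes, the α9k1 effect after crush being lower than that without crush by a log2 of -2.25 ± 0.66 (95% interval of -3.66 to -0.85, unadjusted p = 0.00381 and adjusted p = 0.129 with limma). It was called without the covariates and not with them. The adjusted p fell under 0.1 without GFP-crush replicate 1 (0.0989) or α9k1-crush replicate 4 (0.0534).

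Ccng1 (chr11:40748552-40755311, minus strand), which encodes cyclin G1, is among the most regular p53 targets. Its levels ran from 6.09 to 6.64 over all 19 libraries, and all 4 comparisons overlapped. The log2FC was -0.08 in α9k1-naive versus GFP-naive, with a 95% interval of -0.36 to 0.21, and 0.16 in GFP-crush versus GFP-naive, with an interval of -0.12 to 0.45. The α9k1 interval lies below the change of Mdm2 or Cdkn1a. Ccng1 was called once, as lower in α9k1-crush versus GFP-crush without the covariates (-0.23, adjusted p = 0.0935), and not with them (-0.26, adjusted p = 0.857).

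Btg2 (chr1:134075170-134079120, minus strand) encodes an antiproliferative partner of the mRNA deadenylase complex and is an immediate early gene as well as a p53 target. Its values in GFP-naive were 6.98, 7.13, 7.39, 7.28 and 7.12, and in α9k1-naive they ran from 7.97 over a median of 8.14 to 8.33. The GFP-crush values fell to 5.15, 5.02, 5.86 and 5.78, whereas those of α9k1-crush were 7.06, 7.42, 6.67 and 7.33, around the level of GFP-naive, with 6.67 below and 7.42 above its range. No library of any group overlapped in the 4 comparisons. The log2FC was 1.21 ± 0.19 (adjusted p = 0.000416) for α9k1-naive versus GFP-naive and -1.88 ± 0.19 (a ratio of 0.272, adjusted p = 4.06e-05) for GFP-crush versus GFP-naive. For α9k1-crush versus GFP-crush it was 2.63 ± 0.42 (6.19-fold, adjusted p = 0.00664), with a difference of means in the deposited values of 1.67. Each of these calls was kept without each library in turn, although that of α9k1-crush versus GFP-crush was lost in the fit of the crush libraries alone.

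Btg2 in α9k1-crush versus α9k1-naive was lower by a difference of means of -1.02, with a log2FC of -0.46 ± 0.35 (adjusted p = 0.486) once the covariates were fitted. Its interaction was 1.42 ± 0.40 (95% interval of 0.58 to 2.27, unadjusted p = 0.00279, adjusted p = 0.112), the only one of the set that was above 0 with an unadjusted p under 0.05. It passed the threshold without 6 of the 19 libraries, taken 1 at a time, with adjusted p from 0.0530 to 0.0965, and under the filter on low values.

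The Gadd45 genes encode small proteins that bind the stress kinase MEKK4 (Map3k4), PCNA and p21, and Gadd45a is the p53 target among them. Gadd45a lies at chr6:67035096-67037457 (minus strand), Gadd45b at chr10:80930091-80932204 (plus strand) and Gadd45g at chr13:51846678-51848468 (plus strand). The Gadd45a values in GFP-naive were 6.62, 6.89, 6.61, 6.89 and 6.60. In α9k1-naive they ran from 8.72 over a median of 8.99 to 9.13, with a log2FC of 2.10 ± 0.21 (4.30-fold, 95% interval of 1.66 to 2.54, adjusted p = 4.09e-06). In GFP-crush they were 6.62, 7.17, 6.19 and 6.66, around the level of GFP-naive, with a log2FC of -0.01 and a 95% interval of -0.46 to 0.43. The sign of that value differed between scalings (0.13 with libraries centred on their medians). In α9k1-crush they were 7.75, 8.22, 7.56 and 7.95, above GFP-crush and below α9k1-naive without overlap. Neither of these differences was called with the covariates (1.06 ± 0.45, adjusted p = 0.504, which was -0.047 in the fit of the crush libraries alone, and -1.05 ± 0.37, adjusted p = 0.117), and both were called without them (1.21 and -1.10).

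Exons of Gadd45a overlap with E230016M11Rik, a gene on the other strand. The kit does not mark strand, so that reads from the shared bases cannot be told apart. E230016M11Rik was itself higher in α9k1-naive (3.51 ± 0.37, SD, n = 6) than in GFP-naive (1.19 ± 0.45, SD, n = 5), with a log2FC of 2.49 ± 0.31 (adjusted p = 5.17e-05). Its mean was 1.26 ± 0.41 in α9k1-crush (SD, n = 4), and it was far below Gadd45a in all groups.

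Gadd45b was at 7.79, 7.75, 7.97, 8.09 and 7.89 in GFP-naive and ran from 9.55 over a median of 9.79 to 9.98 in α9k1-naive. The GFP-crush values were 7.003, 7.13, 7.40 and 7.28, all below GFP-naive, and the α9k1-crush values were 8.03, 8.38, 7.44 and 7.96. The log2FC was 2.13 ± 0.16 (4.39-fold, adjusted p = 2.48e-07) for α9k1-naive versus GFP-naive and -0.82 ± 0.16 (adjusted p = 0.00475) for GFP-crush versus GFP-naive. It was -1.49 ± 0.29 (adjusted p = 0.00910) for α9k1-crush versus α9k1-naive. For α9k1-crush versus GFP-crush it was 1.47 ± 0.35 (adjusted p = 0.0920), with a difference of means of 0.75. That call was kept in 5 of 19 fits without a library, with a highest adjusted p of 0.284, although the log2FC stayed between 1.33 and 1.67.

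Gadd45g had the largest α9k1 effect of the set. It was at 8.52, 8.54, 8.79, 8.74 and 8.62 in GFP-naive and ran from 10.98 over a median of 11.25 to 11.56 in α9k1-naive, a gap of more than 2 log2 units between the nearest libraries. The log2FC was 2.86 ± 0.15 (7.24-fold, 95% interval of 2.54 to 3.17, adjusted p = 4.86e-09), the 57th highest of 12629 genes. In GFP-crush it was at 7.13, 6.98, 7.46 and 7.34, below all GFP-naive libraries (log2FC of -1.48 ± 0.15, adjusted p = 2.90e-05). In α9k1-crush it was at 9.04, 9.44, 8.69 and 8.999, between the naive groups, with 8.69 inside the range of GFP-naive. The log2FC was 2.66 ± 0.32 against GFP-crush (6.34-fold, adjusted p = 0.000831, the 74th highest) and -1.67 ± 0.26 against α9k1-naive (adjusted p = 0.00301). The differences of means in the deposited values were 1.82 and -2.25. All 4 calls were kept without each library in turn, but the 2 with α9k1-crush were lost in fits of only the 2 groups compared. The interaction was -0.19, with a 95% interval of -0.83 to 0.45. Without the covariates the interaction was called (-0.83, adjusted p = 0.00643).

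The balance between the Gadd45 genes differed between the groups, most clearly for Gadd45g against Gadd45b, as differences within a library show. These tests were added after the values were seen, and are 2-sided exact permutation tests over libraries with Benjamini-Hochberg adjustment over 12 tests. Gadd45g exceeded Gadd45b by 0.74 ± 0.06 in GFP-naive (SD, n = 5), by 1.52 ± 0.11 in α9k1-naive (SD, n = 6), by 0.02 ± 0.12 in GFP-crush (SD, n = 4) and by 1.09 ± 0.11 in α9k1-crush (SD, n = 4). The 4 groups did not overlap in this difference. The exact permutation p was 0.00216 for the naive groups, the smallest that 462 splits allow with unequal groups (adjusted p = 0.0143 over the 12 tests). It was 0.0286 for the crush groups, the smallest that 70 splits allow in a 2-sided test (adjusted p = 0.0381). Gadd45g exceeded Gadd45a by 1.92 ± 0.20 in GFP-naive and by 0.57 ± 0.60 in GFP-crush (exact permutation p = 0.00794, adjusted p = 0.0159), where 1 library had more Gadd45a than Gadd45g. After the crush the same difference was 1.18 with α9k1 against 0.57 with GFP, which was not significant (exact permutation p = 0.114). For Gadd45b minus Gadd45a the adjusted permutation p was 0.0227 between the naive groups and 0.143 between the crush groups. With crush it was 0.0667 in GFP neurons and 0.0143 in α9k1 neurons. These tests do not use the covariates.

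**Figure D3:**
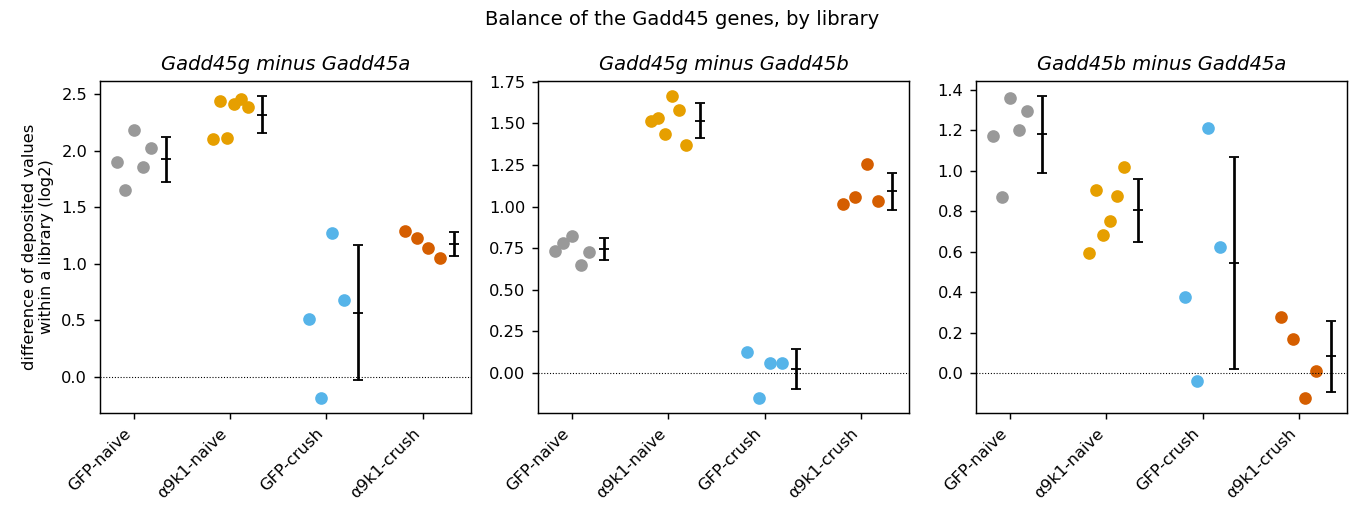
Differences between the deposited log2 values of 2 Gadd45 genes within a library (vertical axes, in log2 units, each panel with its own range) in the 4 groups, with 1 point for each library and a bar for the mean ± SD. In the middle panel Gadd45g minus Gadd45b separates the groups, whose means were 0.02 in GFP-crush, 0.74 in GFP-naive, 1.09 in α9k1-crush and 1.52 in α9k1-naive.

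The proapoptotic genes Bax and Bbc3 were not called higher in any of the comparisons. Bax (chr7:45461697-45466898, minus strand), the pore-forming effector at mitochondria, stayed between 5.83 and 6.85 over all libraries. Its means were 6.64 ± 0.08 (SD, n = 5) in GFP-naive, 6.38 ± 0.09 (SD, n = 6) in α9k1-naive, 6.64 ± 0.14 (SD, n = 4) in GFP-crush and 5.99 ± 0.18 (SD, n = 4) in α9k1-crush. Both α9k1 groups lay below the GFP groups without overlap, although the log2FC with covariates was -0.13 ± 0.10 (adjusted p = 0.409) without crush and -0.23 ± 0.23 (adjusted p = 0.830) with it. Without covariates the differences were -0.25 (adjusted p = 0.0267) and -0.65 (adjusted p = 5.82e-05).

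Bbc3 (chr7:16308393-16318205, plus strand) encodes Puma, the BH3-only protein through which p53 starts apoptosis. It was at 3.60, 3.91, 3.24, 3.51 and 3.67 in GFP-naive and ran from 2.64 over a median of 2.96 to 3.12 in α9k1-naive. These groups did not overlap, and the log2FC was -0.69 ± 0.25 (adjusted p = 0.0621). The call was lost without GFP-naive replicate 2 (-0.55, adjusted p = 0.157) or replicate 4 (-0.59, adjusted p = 0.204), and without GFP-crush replicate 3 (adjusted p = 0.108) or α9k1-crush replicate 3 (adjusted p = 0.126), which bear on the shared spread. In GFP-crush it ran from 2.23 to 3.53 and in α9k1-crush from 2.50 to 2.92, and none of the other comparisons was called with the covariates.

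The interaction, by how much the crush changed the effect of α9k1, was called for 0 of the 10 genes in the limma fit, against 1.35% of all genes higher and 0.847% lower. At an unadjusted p under 0.05 there were 3 (Cdkn1a, Btg2 and Gadd45a), against 14.0% of all genes. Without the covariates 6 of 10 were called, with Btg2 higher, against 23.3% of all genes, and Cdkn1a, the Gadd45 genes and Bax lower, against 16.1%.

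Of 34 other established p53 targets, 23 were among the genes with values, and they did not move as a block. In α9k1-naive versus GFP-naive 4 were called higher and 5 lower, against 11.4% and 17.6% of all genes, with a median log2FC of -0.14 (-0.08 over all genes). The higher were Sfn (14-3-3σ, a G2 arrest protein, 1.66 ± 0.25, adjusted p = 0.000277), Plk3 (0.92), the proapoptotic gene Bid (0.63) and the stress sensor Sesn1 (0.50). The lower were Perp (-1.58), the p53-directed phosphatase Ppm1d (-0.93 ± 0.16, adjusted p = 0.000682), the DNA repair factor Xpc (-0.62), Phlda3 (-0.57) and Sesn2 (-0.55). Bid and Perp were each called in 11 of 19 fits without a library, and Xpc was not called without the covariates (adjusted p = 0.122). In the fit without covariates 7 of the 23 were called higher and 8 lower, against 16.5% and 29.5% of all genes, with a median log2FC of -0.002. In α9k1-crush versus GFP-crush 0 of the 23 were called in either direction, with 9 higher and 5 lower without the covariates, against 29.6% and 28.3% of all genes. With crush in GFP neurons 0 were called higher and 5 lower (7.39% and 15.7% of all genes), led by Plk2 (-0.98 ± 0.21) and Ppm1d (-0.83 ± 0.16), and in α9k1 neurons Sfn alone was called, as lower (-1.45 ± 0.45, adjusted p = 0.0763, against 5.27% of all genes), in 11 of 19 fits without a library. Without the covariates 4 were called higher and 9 lower with crush in α9k1 neurons, against 28.5% and 27.1% of all genes.

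**Figure D4:**
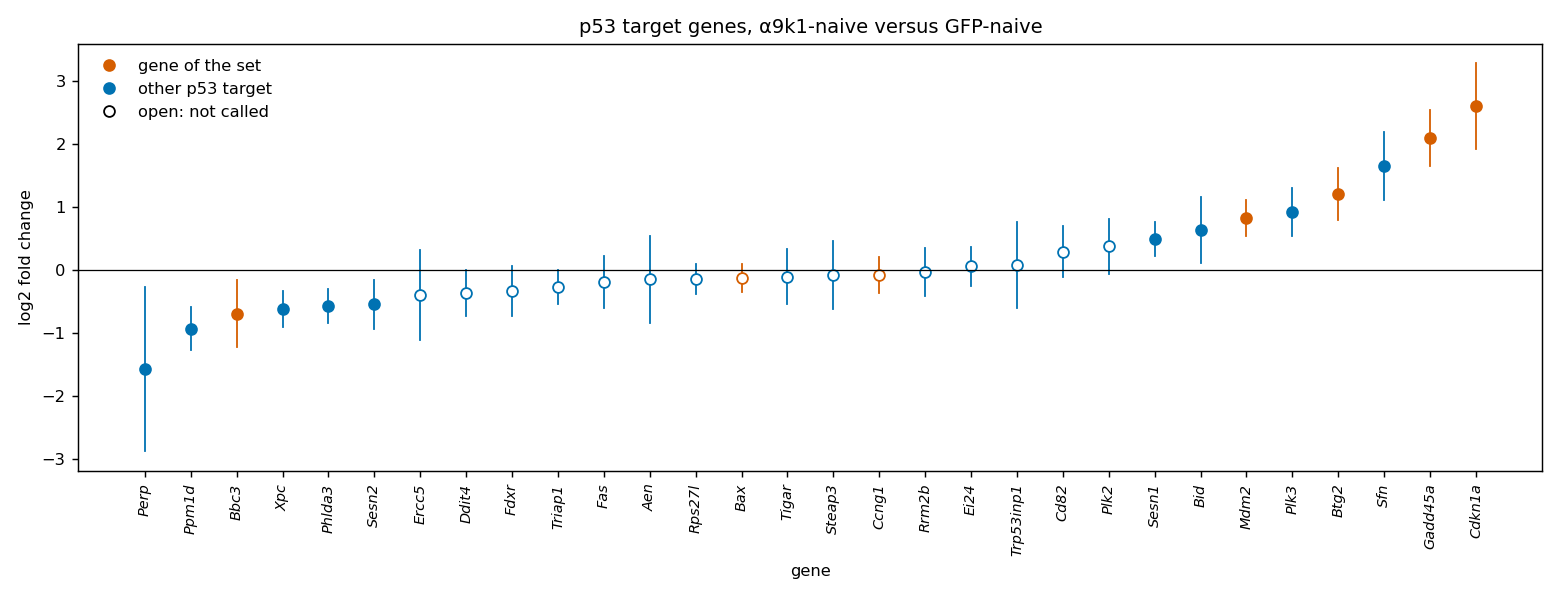
log2FC in α9k1-naive versus GFP-naive (vertical axis, in log2 units) of 23 other p53 targets and of the p53 targets of the set (Gadd45b, Gadd45g and Trp53 are left out), sorted by value along the horizontal axis. Lines are 95% confidence intervals and open circles genes that were not called. Cdkn1a (2.61) and Gadd45a (2.10) lie at the upper end and Perp (-1.58) at the lower end.

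Regulators and relatives of p53 (14 of 20 with values) had 1 called gene in α9k1-naive versus GFP-naive, the ubiquitin ligase Rchy1, which was lower (-0.58 ± 0.14, adjusted p = 0.0102), against 17.6% of all genes. With crush in GFP neurons 3 were called lower, against 15.7%, Trp53bp1 (-0.99), the p53 inhibitor Mdm4 (-0.78) and the deubiquitinase Usp7 (-0.63), and 0 were called in the comparisons that include α9k1-crush. Without the covariates 4 of the 14 were called lower in α9k1-naive versus GFP-naive (29.5% of all genes) and 7 lower with crush in GFP neurons (20.1%). In that fit 4 were called higher in α9k1-crush versus GFP-crush (29.6%), and 3 higher and 1 lower with crush in α9k1 neurons (28.5% and 27.1%).

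The other inhibitors of cyclin-dependent kinases changed in both directions. In α9k1-naive versus GFP-naive Cdkn1b (p27) was lower by -1.15 ± 0.21 and Cdkn1c (p57) by -1.71 ± 0.25, and Cdkn2d (p19) was higher by 0.95 ± 0.10 (adjusted p = 6.79e-06), while Cdkn2b and Cdkn2c were not called. Of all genes, 17.6% were called lower there and 11.4% higher. Cdkn2d was also called higher in α9k1-crush versus GFP-crush (0.91 ± 0.21, adjusted p = 0.0874, against 0.728% of all genes), in 6 of 19 fits without a library, with 0.36 without the covariates. With crush in GFP neurons, Cdkn1c (-0.89), Cdkn1b (-0.55) and Cdkn2d (-0.39) were called lower, against 15.7% of all genes, Cdkn1b in 7 of 19 fits without a library and not without the covariates (-0.31, adjusted p = 0.277). The interaction was called for Cdkn1c, as higher (2.04 ± 0.52, adjusted p = 0.0814, against 1.35% of all genes), in 10 of 19 fits without a library. Of the relatives of Btg2, Btg1 was higher in α9k1-naive (0.62 ± 0.20, adjusted p = 0.0399) and Tob2 lower (-0.87 ± 0.16), and Btg1, Tob1 and Tob2 were all called lower with crush in GFP neurons (-0.71, -0.54 and -0.74), against 15.7% of all genes. Without the covariates Btg1 was not called in either comparison (0.20, adjusted p = 0.436, and -0.46, adjusted p = 0.123).

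Among 13 Gadd45 partners and genes of the stress kinase branch, 3 were called higher and 2 lower in α9k1-naive versus GFP-naive, against 11.4% and 17.6% of all genes. The higher were Ppp1r15a (Gadd34, the stress-induced subunit of the eIF2α phosphatase, 1.75 ± 0.16, adjusted p = 1.53e-06), Ddit3 (Chop, 0.93) and Map2k3 (0.78). Map3k4, the kinase that the Gadd45 proteins bind, was lower (-0.71 ± 0.16), as was Gadd45gip1 (-0.41). Ppp1r15a followed Gadd45g in being lower with crush, by -0.77 in GFP and by -1.14 in α9k1 neurons. Of 10 other Bcl-2 family genes with values, 3 were called higher in α9k1-naive versus GFP-naive. After the crush 0 were called in either direction (5 higher and 2 lower without the covariates, against 29.6% and 28.3% of all genes). The share of all genes called higher was 11.4% without crush and 0.728% after it. The 3 were the prosurvival genes Bcl2a1d (3.60 ± 0.26, adjusted p = 1.39e-07) and Mcl1 (0.57), and the proapoptotic gene Bok (0.50). With crush in GFP neurons Bcl2a1d was higher as well (2.80 ± 0.26), and 3 prosurvival genes were called lower, Bcl2 (-1.06), Mcl1 (-0.80) and Bcl2l1 (-0.34). For Bcl2a1d the interaction was called (-3.57 ± 0.53, adjusted p = 0.00713). Of 15 cyclins, cyclin-dependent kinases and proliferation genes, Mcm2 alone was called in α9k1-naive versus GFP-naive, as higher (0.58 ± 0.20, adjusted p = 0.0532, against 11.4% of all genes). The crush in GFP neurons had 4 of the 15 called lower (15.7% of all genes), among them Cdk6 (-1.42), Rb1 (-0.80) and Ccnd1 (-0.78). In α9k1 neurons Cdk6 was lower with crush (-1.95 ± 0.59, adjusted p = 0.0687) and Ccng2, the relative of Ccng1, higher (0.84 ± 0.27, adjusted p = 0.0899), the latter in 4 of 19 fits without a library and not without the covariates (0.23, adjusted p = 0.176). The interaction was called for Ccng2 (1.48 ± 0.31, adjusted p = 0.0384).

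The genes whose levels were most like those of the set over the 19 libraries, leaving out the set itself, were named by the highest Pearson r. The libraries fall into 4 groups that these values share, so the r, given without a test, is a description. Gadd45g was most like Sat1, the polyamine acetyltransferase (r = 0.995), and Ppp1r15a (0.991). Gadd45b was most like the metallothioneins Mt1 (0.995) and Mt2 (0.992), Gadd45a like Noct (0.986) and the injury factor Atf3 (0.984), and Btg2 like Fos (0.976) and the heat shock gene Hspa1b (0.975). With group means removed, r was still 0.926 for Btg2 with Fos and 0.913 for Gadd45b with Mt1. Mdm2 was most like the kinase Sgk1 (0.971) and Pfkfb3 (0.967), and Cdkn1a like Nampt (0.967) and Sectm1b (0.932). Bax was most like the mitochondrial ribosomal gene Mrpl36 (0.965) and Banf1 (0.960). For Trp53 (Gm7936, 0.895 and Prdx4, 0.895), Bbc3 (Plekha5, 0.890) and Ccng1 (Lyrm9, 0.814 and Gm22914, 0.775) no gene was as close.

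Within the set, Gadd45b and Gadd45g were the most alike pair (r = 0.983, and 0.897 with group means removed), followed by Mdm2 and Gadd45a (0.935 and 0.566) and by Btg2 and Gadd45g (0.930 and 0.840). Cdkn1a and Gadd45a had an r of 0.841 over all libraries, which was -0.06 with group means removed. Trp53 had an r of -0.61 with Cdkn1a, -0.63 with Gadd45a and -0.72 with Mdm2, which was -0.15, 0.18 and -0.23 with group means removed.

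Immediate early genes, which cell dissociation also induces, moved with Gadd45b and Gadd45g, with Btg2 in the 3 comparisons in which it was called, and with Cdkn1a and Gadd45a in α9k1-naive versus GFP-naive but not with crush in GFP neurons. Their summed level (19 genes, all with values) was 12.3 to 12.6 in GFP-naive, 13.9 to 14.3 in α9k1-naive, 11.1 to 11.5 in GFP-crush and 12.6 to 13.2 in α9k1-crush. The group means of Gadd45g had the same order, with 1 α9k1-crush library inside the GFP-naive range. Those of Btg2 differed in it, with α9k1-crush (7.12) below GFP-naive (7.18) and the libraries overlapping. In α9k1-naive versus GFP-naive 18 of 19 were called higher, led by Arc (3.19 ± 0.27), Myc (3.01 ± 0.21) and Atf3 (2.99 ± 0.17), and in α9k1-crush versus GFP-crush 13 of 19. With crush in GFP neurons 19 of 19 were called lower, led by Fosb (-1.77), Egr2 (-1.39) and Fos (-1.38), and in α9k1 neurons 7 of 19 (19 of 19 without the covariates). Of all genes, 11.4% were called higher in the first of these comparisons and 0.728% in the second, and 15.7% and 5.27% lower with crush (27.1% in α9k1 neurons without the covariates). Of 7 axotomy genes with values, 4 were higher in α9k1-naive versus GFP-naive, among them Atf3, the neuropeptide Gal (2.12 ± 0.40) and Jun (1.44 ± 0.12), and Npy was lower (-2.23 ± 0.82, adjusted p = 0.0671, but 0.321 without the covariates). The part of dissociation in the results for Btg2, Cdkn1a, Mdm2 and the Gadd45 genes was not tested.

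Markers of other cells moved as well. The summed satellite glia markers (6 of 6 with values, all with a mean above 1) were higher in α9k1-naive (16.3 to 16.8) than in GFP-naive (15.6 to 15.9) and lower in GFP-crush (14.6 to 14.9) and α9k1-crush (14.1 to 14.7), which is the direction of Gadd45b and Gadd45g in 3 of the 4 comparisons but not in α9k1-crush versus GFP-crush. The sum was nearly that of Apoe alone, at 16.46 ± 0.20 in α9k1-naive (SD, n = 6), with a log2FC of 0.89 ± 0.15. In α9k1-naive versus GFP-naive 3 of the 6 were called higher, against 11.4% of all genes, with a median log2FC of 0.30, and without the covariates 2 were higher and 1 lower, against 16.5% and 29.5%. The 6 Schwann cell markers were lower in α9k1-naive (11.4 to 11.8) than in GFP-naive (13.1 to 13.4), with 6 of 6 called, against 17.6% of all genes, and stood at 13.2 to 13.9 in GFP-crush and 12.3 to 13.4 in α9k1-crush. The macrophage markers (7 of 8 with values) were at 7.41 to 7.92 in GFP-naive and higher elsewhere (8.69 to 9.35 in α9k1-naive, 9.14 to 9.70 with GFP and crush, 8.89 to 9.79 with α9k1 and crush). Of the 7, 5 were called higher in α9k1-naive versus GFP-naive (11.4% of all genes) and 5 with crush in GFP neurons (7.39%). Cdkn1a and Bcl2a1d were called higher in the same 2 comparisons. With crush in α9k1 neurons 1 of the 7 was called higher (4.47%), whereas the Cdkn1a values were lower. The fibroblast markers (4 of 5) were at 9.17 to 9.50 in GFP-naive and at 6.31 to 8.03 in α9k1-naive, 7.83 to 8.14 in GFP-crush and 7.39 to 7.98 in α9k1-crush. Of the endothelial markers 1 of 4 had values (Cldn5, with a log2FC of -2.04 ± 0.58 in α9k1-naive versus GFP-naive), and of the markers of dividing cells 1 of 4, at 1.41 to 3.62 over all libraries. The 5 T and B cell markers were not analysed here. Sensory neuron markers were at 12.6 to 13.0 in GFP-naive, 12.3 to 12.7 in α9k1-naive and 13.1 to 13.4 in the crush groups, and in α9k1-naive versus GFP-naive 1 of the 8 was called higher and 2 lower, against 11.4% and 17.6% of all genes. The lower included Nefh, the heavy neurofilament of large neurons (-2.32 ± 0.25), which was higher by 2.79 ± 0.45 with crush in α9k1 neurons, and the higher was Prph (0.34 ± 0.13, adjusted p = 0.0664). The part of these cells in the results for the 10 genes and Bcl2a1d was not tested.

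**Figure D5:**
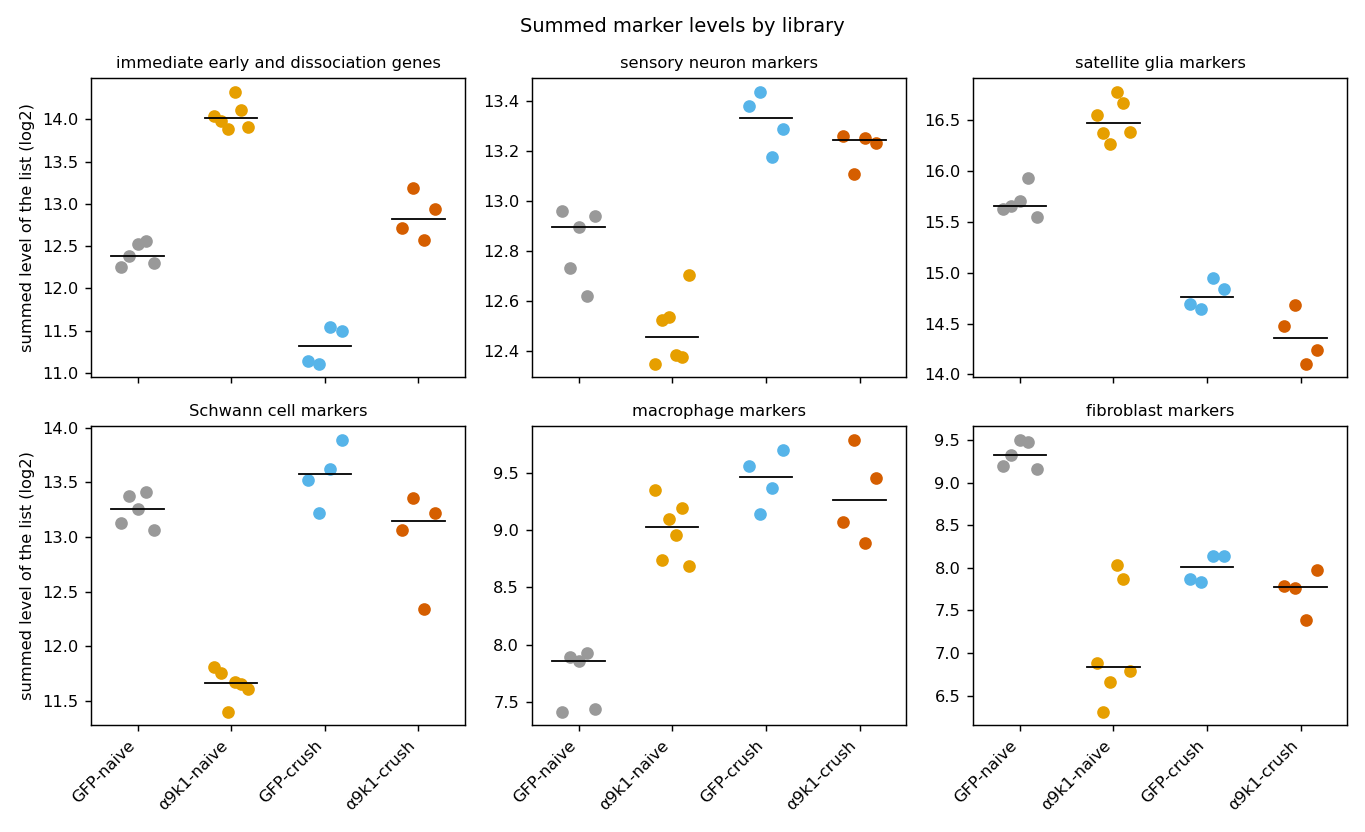
Summed levels of 6 gene lists (vertical axes, log2 of the sum of the linear values, each panel with its own range) in the 4 groups, with 1 point for each library and a line at the median. Immediate early genes are highest in α9k1-naive (13.9 to 14.3) and lowest in GFP-crush (11.1 to 11.5), and satellite glia markers are highest in α9k1-naive (16.3 to 16.8).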

How the data were processed

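RNA of the sorted cells was made into libraries with SMART-Seq v4, which does not mark strand. Per the study's methods, STAR was run by the authors against mouse mm10, followed by SAMtools filtering. They then counted reads with Salmon, removed genes with low counts, took log2 with a small pseudocount and corrected for gene length and depth with cqn. The deposited expression table holds these log2 values, without the gene counts, so that the reads behind a single value are not known here. The authors also deposited Picard metrics of each library, as read and base counts, as fractions and percent values of reads or bases, and as ratios of coverage, and 5 further columns repeat a neighbouring metric. Another deposited table holds the gene annotation, mean log2 levels and the authors' own fold changes and p-values, and the fold changes and p-values were not used. The row order of the expression table was checked against the authors' pooled mean of each gene (r = 0.959).

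The 12629 genes were fitted over all 19 libraries with limma 3.58.1 (R 4.3.3), with 4 group means and the first 3 principal components of 48 scaled Picard metrics as covariates (45.9%, 24.1% and 11.5% of their variance), after the design in the study's methods. The batch term of that design was not used here. P-values were adjusted by the Benjamini-Hochberg method over all genes and called under 0.1. No filter and no further pseudocount were applied. Errors of a log2FC are standard errors, and libraries are the replicates: the labels do not give the animals behind each, so that p-values measure the spread between these libraries, which may be technical. The fit was also run on simulated data with known changes. These had independent noise and no effect of library quality, so they do not test how the covariates bear on the groups. Alternatives were a fit without covariates, with only the 2 groups compared, with a filter on low levels, with quantile normalization, with libraries centred on their medians, with the replicate number as a block, and without each library in turn. Differences between the Gadd45 genes within a library were compared by exact permutation tests. Within each list and comparison, the text names up to 3 called genes with the largest change in each direction, by rule, and further called p53 targets, which were chosen after their values were seen. Likeness is Pearson's r over 19 libraries, and 1 gene that it names is not reported here. Promoters and motifs were taken from RefSeq (GRCm38.p6), with all 10 genes matched. Figures were drawn with matplotlib 3.10.9 in Python 3.11.15. The 10 genes and all gene lists were chosen with earlier results of these data known.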

Additional observations from a re-analysis of the deposited data

Results flagged for a closer look

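Each of the 10 genes was examined in each of the 4 groups, 40 sets of values in all, and 1 held a library far from the others. Bax in GFP-crush replicate 4 was at 6.85, and the next value was 6.59. The gap took up 0.832 of the range of the group, above Dixon's critical value of 0.829 for 4 libraries. Chance gives such a gap in about 1 in 20 groups.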

How the results depend on the processing

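The counts of called genes depended on the covariates and on the libraries in the fit. Without the covariates 8 of 10 genes were called in α9k1-crush versus GFP-crush (3 with them), 7 in α9k1-crush versus α9k1-naive (2 with them) and 6 for the interaction (0 with them), and the fits of only the 2 groups called 0 genes in both comparisons with α9k1-crush. The filter on low values removed Bbc3 and added 1 interaction call (Btg2) and the call of Gadd45a in α9k1-crush versus α9k1-naive (3 genes lower). Without 1 library at a time the counts were 6 to 8 for α9k1-naive versus GFP-naive, 2 to 3 for α9k1-crush versus GFP-crush, 3 to 5 for GFP-crush versus GFP-naive, 2 to 3 for α9k1-crush versus α9k1-naive and 0 to 2 for the interaction. Over all genes, α9k1-crush versus GFP-crush had 115 calls with the covariates, 7323 without and 0 with only the 2 groups. The same counts were 3669 and 5813 for the naive groups (2964 with only the 2), 2917, 3922 and 924 for the crush in GFP neurons, 1230, 7017 and 202 for the crush in α9k1 neurons, and 278 and 4970 for the interaction. The lowest all-gene counts without 1 library were 2637 for the naive groups (without α9k1-naive replicate 6), 64 for the crush groups (α9k1-naive replicate 4; 75 without GFP-naive replicate 1 and 71 without GFP-crush replicate 2), 1483 for the crush in GFP neurons (GFP-naive replicate 2; 1920 without GFP-crush replicate 2), 717 for the crush in α9k1 neurons (α9k1-naive replicate 4; 749 when replicate 1 of that group was left out) and 99 for the interaction (GFP-naive replicate 3). The interaction count also moved by over 1.5 times without GFP-crush replicate 2 (128), GFP-naive replicate 4 (140), α9k1-crush replicate 2 (443) or 4 (125), or α9k1-naive replicate 2 (171) or 4 (165). The cause of these shifts was not tested.

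Quantile normalization and centring on medians each lost the call of Gadd45b in α9k1-crush versus GFP-crush. Centring shifted the median log2FC of all genes from -0.08 to 0.06 with crush in GFP neurons and from 0.07 to -0.06 for the interaction. The split of higher to lower calls there went from 933 and 1984 to 1826 and 1180 (1206 and 1373 with quantile normalization), and for the interaction from 171 and 107 to 118 and 167 (128 and 134).

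Replicate numbers did not pair the libraries, since libraries with the same number had a median r of 0.02 between their deviations from the group means, over 0.1 in 4 of 25 pairs. With the replicate block, 7, 2, 4, 2 and 0 genes were called in the 5 comparisons in the order above, Gadd45b in α9k1-crush versus GFP-crush being lost and no other call changed. Of all genes, the block called 2446 (against 3669) between the naive groups, 57 (115) between the crush groups, 331 (1230) between the α9k1 groups and 26 (278) for the interaction.

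Values that changed sign were all of a log2FC that was not called. For the interaction, Trp53 was 0.203 with the block and -0.362 to 0.135 without 1 library at a time, Mdm2 was 0.063 without covariates and -0.225 to 0.120 without a library, and Bbc3 was 0.353 without covariates. In α9k1-crush versus GFP-crush, Cdkn1a was -0.274 to 0.892 without a library, and Ccng1 (0.631) and Gadd45a (-0.0465) changed sign with only the 2 groups. Ccng1 was -0.131 to 0.0311 without a library in the naive groups. From α9k1-naive to α9k1-crush it was 0.0242 without covariates, 0.302 with only the 2 groups and -0.183 to 0.185 without a library. With crush in GFP neurons, Gadd45a was 0.205 with only the 2 groups, 0.00143 with quantile normalization, 0.126 with centring, 0.0085 with the block and -0.248 to 0.109 without a library. Bax was 0.00352 there without covariates, 0.0558 with only the 2 groups and 0.0722 with centring. The values of Cdkn1a below 0 came without GFP-crush replicate 2 (-0.136) or α9k1-crush replicate 4 (-0.274).

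The depth behind each gene is unknown, as the table holds no counts. Cdkn1a and Bbc3 had the lowest levels and the widest spread between libraries in some groups.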
